A study of Mus musculus with 8 samples.

Results

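The genes described here encode the proteins of blood coagulation and of fibrinolysis, measured in primary mouse hepatocytes in which heme oxygenase 1 (HO1), heme oxygenase 2 (HO2) or both were targeted. A list of 32 genes was used, and a gene entered if a probe set of the array carried its symbol and no other. This held for 30 of the 32, among 19937 genes tested in all. The only probe set for Klkb1, which encodes plasma prekallikrein, also carries the symbol Cyp4v3, and Cpb2, which encodes a carboxypeptidase that slows fibrinolysis, has no value here.

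Hepatocytes, the parenchymal cells of the liver, were isolated from livers of male BALB/c mice by collagenase perfusion and a Percoll gradient, and their RNA was measured on 8 whole-transcript arrays, 2 for each of 4 groups. The control arrays came from HO1+/+ cells with a scrambled short hairpin RNA (shRNA), the arrays labelled HO1 knockout from HO1-/- cells with the scrambled shRNA, those labelled HO2 knockdown from HO1+/+ cells with an shRNA against HO2, and those labelled combined from HO1-/- cells with the HO2 shRNA. All 4 groups shared the lentiviral transduction, 3 days in puromycin, a pulse of 1 µM dexamethasone for 30 min and the harvest 28 h later. Dexamethasone is a glucocorticoid that resets the circadian clock, and the series asks, by its title, about carbon monoxide, a product of both enzymes, and circadian transcription. Several features limit these groups as models: the labels name 1 HO2 hairpin, do not say whether the 2 biological replicates of a group came from separate animals, and give neither the age of the mice nor the exons removed in HO1-/-. The p-values therefore measure the spread between these samples, and the cell preparation cannot be told apart from the genotype.

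Coagulation is a cascade of proteases, most of them made by hepatocytes as inactive zymogens, that ends when thrombin cleaves fibrinogen to fibrin. Tissue factor starts it on cell surfaces, protein cofactors speed it, factor XIII cross-links the clot, and the protein C system and tissue factor pathway inhibitor hold it back. Plasmin, made from liver plasminogen by the activators tPA and uPA, later dissolves fibrin. Fibrinogen is also an acute phase protein, whose genes respond to interleukin 6 and to glucocorticoids. Other proteins of the system are made by endothelial cells and macrophages, which can contaminate hepatocyte preparations.

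The targeted genes and the cell markers were read first. Hmox2, which encodes HO2, had log2 signals of 11.41 and 11.57 in control, 11.59 and 11.60 in HO1 knockout, 8.32 and 8.38 in HO2 knockdown and 9.26 and 9.32 in combined, so it was lower in all 4 arrays with HO2 shRNA. Hmox1, which encodes HO1, read 11.46 and 11.40 in control, 11.98 and 11.97 in HO1 knockout, 11.54 and 11.57 in HO2 knockdown and 12.40 and 12.47 in combined. Neither HO1-/- group had less of it than its HO1+/+ counterpart, so each direction given for HO1 rests on the labels. The hepatocyte markers were bright, with a mean log2 signal over 9 genes between 12.14 and 13.38 on each of the 8 arrays. Their summed linear signal ran from 54470 to 55570 in control, 61230 to 61290 in HO1 knockout, 94870 to 98310 in HO2 knockdown and 99060 to 100900 in combined. Signal of other cell markers was also present. In control, markers of bile duct cells, 6 genes, summed to between 8452 and 8903. Those of stellate cells and fibroblasts, 10 genes, summed to between 7523 and 7564 there. Markers of Kupffer cells and macrophages, 12 genes, summed to between 6997 and 7286 in control and 6089 and 6322 in HO2 knockdown, but to between 28400 and 28610 in HO1 knockout and 26850 and 28470 in combined. Among these, Adgre1 (F4/80) was 4.65 higher on the log2 scale in HO1 knockout than in control. Of the markers of resident Kupffer cells Vsig4 was lower there, at -1.07, and Clec4f and Timd4, at -0.04 and -0.05, did not pass. These were dim, with means of 7.22, 7.35 and 6.67 over all arrays beside a median of 8.16 over all genes. Their lack of a rise therefore says little about such cells. Of the 12 markers 7 were higher, 1 was lower and 4 did not pass in HO1 knockout. In RNA of a whole culture, fewer cells of a type and less RNA per cell cannot be told apart. Replicate arrays correlated across all genes with Pearson's r between 0.9967 and 0.9986.

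Most of the genes differed from control in each comparison, mainly upward. All values below are log2 signals or differences between log2 group means (log2 fold changes) with 2 arrays a group, and a gene is called higher or lower at a limma adjusted p under 0.05. Compared with control, HO1 knockout had 16 of the 30 genes higher and 2 lower. Of all genes tested 12.8% were called there, 5.62% higher and 7.20% lower. In HO2 knockdown 17 were higher and 2 lower, against 33.2% of all genes called, 16.5% higher and 16.7% lower. In the combined arrays 20 were higher and 3 lower, against 29.9% called, 11.6% higher and 18.3% lower. Without control replicate 2 or without combined replicate 2, 1 gene was lower in combined in place of 3, F5 and Pros1 being lost. Without either HO1 knockout array or either HO2 knockdown array, 1 was lower in HO1 knockout in place of 2, F5 being lost. The median difference from control over the 30 genes was 0.24 in HO1 knockout, 0.35 in HO2 knockdown and 0.54 in combined, beside -0.04, -0.07 and -0.02 over all genes. These 3 comparisons share the control arrays. At least 2-fold, 4, 11 and 12 of the genes were higher and 0 were lower in any of the 3.

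**Figure D1:**
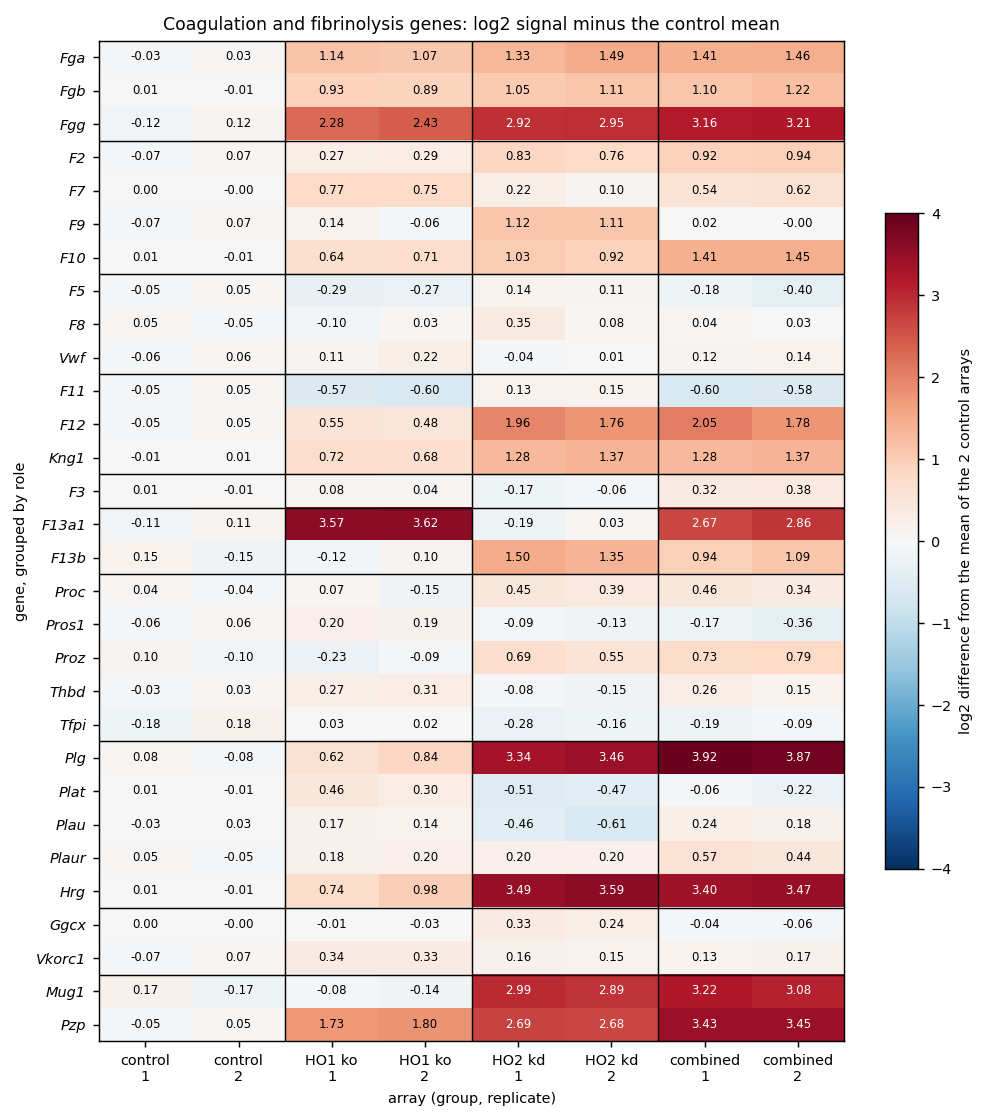
Log2 signal of each of the 30 genes on each of the 8 arrays minus the mean of the 2 control arrays, with genes in rows grouped by role and arrays in columns grouped by condition. Fgg, Plg, Hrg, Mug1 and Pzp stand out with HO2 shRNA, F13a1 in the arrays labelled HO1 knockout and combined, and F8, Vwf and Tfpi stay within 0.35 of the control mean on every array.

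The 3 fibrinogen chains, which assemble into the precursor of fibrin, rose with each perturbation alone, and the rise with both was smaller than the sum of the single effects. Fgg, the gamma chain gene, had signals of 8.80 and 9.04 in control, 11.20 and 11.35 in HO1 knockout, 11.84 and 11.87 in HO2 knockdown and 12.08 and 12.13 in combined. Fga, the alpha chain gene, read 11.73 and 11.80 in control, 12.91 and 12.83 in HO1 knockout, 13.10 and 13.26 in HO2 knockdown and 13.18 and 13.23 in combined. Fgb, the beta chain gene, read 12.27 and 12.25, then 13.19 and 13.15, then 13.31 and 13.37, then 13.36 and 13.48 in the same order. For each chain both control arrays lay below all 6 others, and the HO2 knockdown and combined arrays overlapped for Fga and Fgb but not for Fgg. In HO1 knockout Fgg was 2.35 higher than in control (SE 0.071, adjusted p = 5.36e-13), Fga 1.10 (SE 0.051, adjusted p = 1.25e-10) and Fgb 0.91 (SE 0.043, adjusted p = 1.96e-10). In HO2 knockdown the chains rose by 2.93, 1.41 and 1.08, and in combined by 3.19, 1.44 and 1.16. The sum of the single effects would have been 5.28 for Fgg, 2.52 for Fga and 1.99 for Fgb, and the interaction, which is the effect of HO2 shRNA in HO1-/- cells minus that in HO1+/+ cells, was -2.10 (SE 0.10, adjusted p = 7.48e-09), -1.08 (SE 0.072, adjusted p = 2.03e-07) and -0.83 (SE 0.061, adjusted p = 6.38e-07). Within HO1-/- cells HO2 shRNA still raised all 3, Fgg by 0.83, Fga by 0.33 and Fgb by 0.25. With HO2 shRNA already present, the HO1 genotype changed Fga by 0.02 (95% interval -0.08 to 0.13) and Fgb by 0.08 (-0.01 to 0.17), neither past the test, and raised Fgg by 0.25 (adjusted p = 0.0128). That last call did not hold without HO2 knockdown replicate 1 or without combined replicate 2 (0.23 in each), in the fit without a mean-variance trend, or with arrays centred on their medians (0.19).

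A second probe set for Fga gave larger changes and a similar interaction. Its mean was 8.10 in control, 9.36 in HO1 knockout, 10.41 in HO2 knockdown and 10.63 in combined, which is 1.27, 2.31 and 2.54 above control, and the interaction was -1.04. The rise with HO2 shRNA was thus 1.41 by one probe set and 2.31 by the other, and the negative interaction was seen with both. The second set did not share the overlap of HO2 knockdown with combined, reading 10.39 and 10.42 against 10.62 and 10.65. Within HO1-/- cells its mean went from 9.36 to 10.63 with HO2 shRNA, where the brighter set rose by 0.33. The small late differences given above for Fga thus hold for the brighter set only.

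The 3 fibrinogen genes lie next to each other in the order Fgg, Fga, Fgb with no protein-coding gene between them, and since they moved together their promoters are printed, with that of F9, whose pattern differed. Each is the RefSeq sequence of build GRCm38.p6 from 250 bases before to 50 after the transcription start, 5′ to 3′ on the gene's strand. Capitals mark the letters CTGGGA, the core of the type II interleukin 6 response element, and GTTAAT, part of the site of the liver factor HNF1, each searched on both strands, so that they may stand as TCCCAG and ATTAAC.
Fgg promoter, chr3:83007474-83007773, plus strand: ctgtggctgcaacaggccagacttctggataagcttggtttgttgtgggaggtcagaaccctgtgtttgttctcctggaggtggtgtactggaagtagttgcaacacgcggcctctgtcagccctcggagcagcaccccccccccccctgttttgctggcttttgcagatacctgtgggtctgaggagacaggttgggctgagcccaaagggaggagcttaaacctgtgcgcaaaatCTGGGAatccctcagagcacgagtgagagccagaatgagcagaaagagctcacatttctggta
Fga promoter, chr3:83025903-83026202, plus strand: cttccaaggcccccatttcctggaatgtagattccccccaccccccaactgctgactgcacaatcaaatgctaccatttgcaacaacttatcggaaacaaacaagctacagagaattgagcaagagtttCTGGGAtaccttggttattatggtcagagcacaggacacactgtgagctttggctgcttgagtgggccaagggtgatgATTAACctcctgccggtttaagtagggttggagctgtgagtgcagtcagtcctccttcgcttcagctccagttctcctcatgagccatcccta
Fgb promoter, chr3:83049814-83050113, minus strand: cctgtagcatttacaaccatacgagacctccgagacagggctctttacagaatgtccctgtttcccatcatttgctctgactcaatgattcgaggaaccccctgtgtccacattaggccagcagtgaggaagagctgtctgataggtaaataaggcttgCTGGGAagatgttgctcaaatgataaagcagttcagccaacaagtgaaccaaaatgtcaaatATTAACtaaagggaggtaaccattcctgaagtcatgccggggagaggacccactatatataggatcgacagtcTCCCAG
F9 promoter, chrX:59999214-59999513, plus strand: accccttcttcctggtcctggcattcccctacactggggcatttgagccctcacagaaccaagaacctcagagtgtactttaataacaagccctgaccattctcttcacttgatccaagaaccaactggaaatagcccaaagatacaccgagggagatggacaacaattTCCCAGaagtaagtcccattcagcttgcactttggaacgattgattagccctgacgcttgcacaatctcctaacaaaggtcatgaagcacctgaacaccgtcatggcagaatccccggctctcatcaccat
The letters CTGGGA began 13 bases before the start of Fgg, 121 before that of Fga and 91 before that of Fgb, and Fgb held them once more, reversed, 44 bases after the start. They stood in 31.8% of 32851 promoters of the same length and in 40.7% of the 27 promoters found for 25 of the listed genes. GTTAAT was found, reversed, 43 bases before the start of Fga and 29 before that of Fgb, and in 7.1% of all promoters and 25.9% of those of the listed genes. F9 held 1 reversed CTGGGA, 81 bases before the start, inside a match to the STAT3 letters TTCNNNGAA, which also stood in Fga and Fgb and in 8.3% of all promoters and 14.8% of the listed ones. Other patterns searched stood in at most 4 of the 25 genes. They were the glucocorticoid element letters ACANNNTGT (6.8% of all promoters, 14.8% of the listed ones, among them Fga, Fgb, Hrg and F11), the C/EBP letters TTGCNNCAA (2.1% and 3.7%), the HNF4 core CAAAGTC (4.4% and 3.7%), the E-box CACGTG (7.2% and 3.7%), and the full HNF1 palindrome (0.2% and 3.7%). A match is a description of the letters and not of a bound site.

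**Figure D2:**
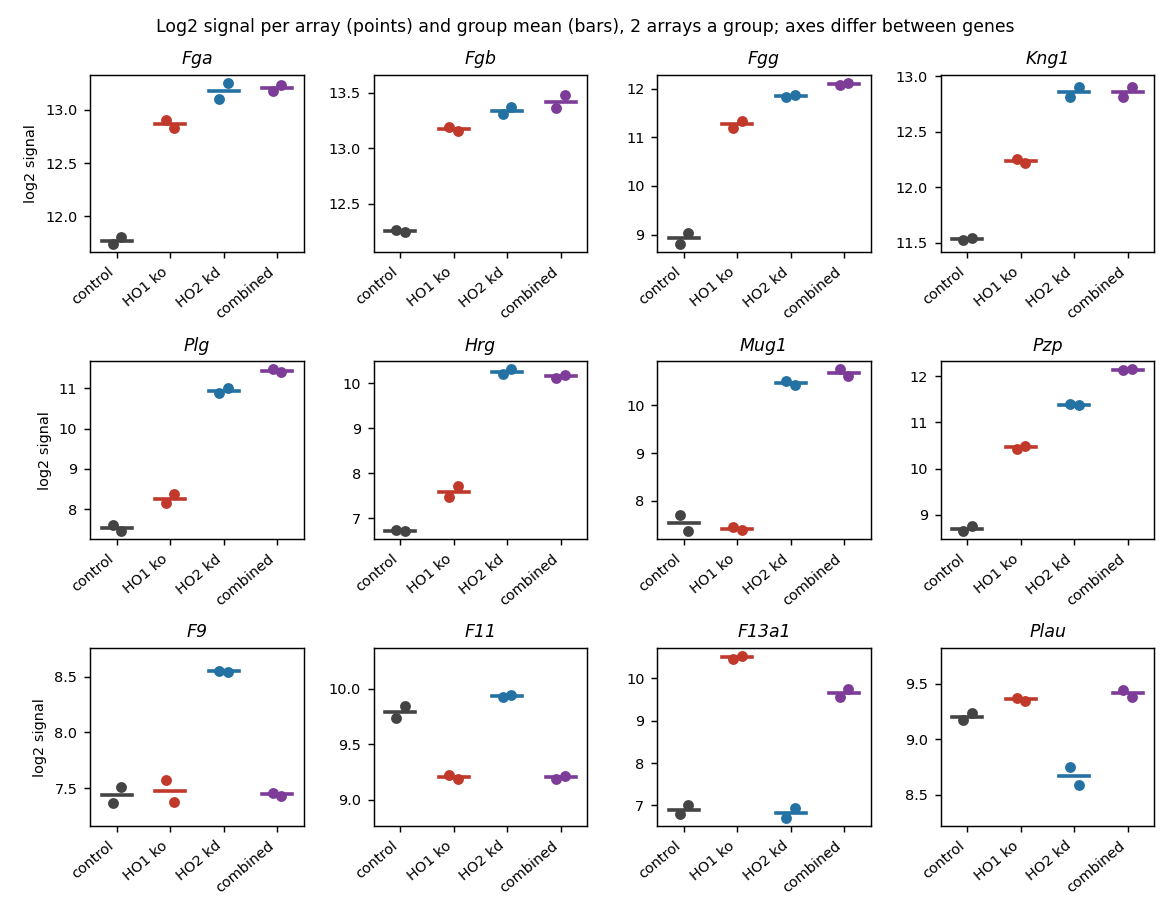
Log2 signal (vertical axes, which differ between genes) of 12 genes on each array (points) with the group mean (bars), 2 arrays for each of the 4 groups. Fga, Fgb, Fgg and Kng1 were raised in all groups but control, Plg, Hrg and Mug1 mainly with HO2 shRNA, F9 in HO2 knockdown only, F13a1 in both groups labelled HO1-/-, and F11 was lower in both of those.

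The vitamin K-dependent zymogens, which need gamma-carboxylation to bind membranes, did not move as a block. F2, which encodes prothrombin, read 9.99 and 10.13 in control, 10.34 and 10.35 in HO1 knockout, 10.89 and 10.82 in HO2 knockdown and a mean of 10.99 ± 0.011 (SD, n = 2) in combined, and was 0.28, 0.79 and 0.93 higher than in control. F10, which encodes factor X, read 7.83 and 7.81, then 8.46 and 8.54, then 8.85 and 8.74, then 9.23 and 9.27 in the same order, a rise by 0.68, 0.98 and 1.43 with no overlap between any groups. F7, which encodes factor VII, rose by 0.76 in HO1 knockout and by 0.58 in combined, while HO2 shRNA changed it by 0.16 in HO1+/+ and -0.18 in HO1-/- cells, neither past the test. F7, F10 and Proz, which encodes protein Z, a cofactor in the inhibition of factor X, are neighbours with no protein-coding gene between them. Proz was 0.62 higher in HO2 knockdown and 0.76 in combined, and -0.16 in HO1 knockout, not past the test.

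F9, which encodes factor IX, rose in HO2 knockdown and in no other group. Its signals were 7.36 and 7.51 in control, 7.57 and 7.38 in HO1 knockout, 8.55 and 8.55 in HO2 knockdown and 7.45 and 7.43 in combined. Both HO2 knockdown arrays lay above the 6 others, which overlapped. The rise was 1.11 in HO1+/+ cells, while in HO1-/- cells the shRNA changed F9 by -0.03 (95% interval -0.24 to 0.18). The interaction was -1.14 (SE 0.14, adjusted p = 9.16e-05), and combined was below HO2 knockdown, at -1.11 (SE 0.099, adjusted p = 5.41e-07). The enzymes of the vitamin K cycle moved by far less. Ggcx, the gamma-carboxylase gene, was 0.29 higher in HO2 knockdown and -0.05 in combined, with an interaction of -0.32 (adjusted p = 0.0127). Vkorc1, which encodes the reductase that recycles vitamin K and is blocked by warfarin, was 0.33 higher in HO1 knockout and 0.15 in combined, the latter not past the test, with an interaction of -0.34 (adjusted p = 0.0137). Both interactions missed the threshold without HO2 knockdown replicate 1, Ggcx also without combined replicate 2 and Vkorc1 without combined replicate 1, and both in the fit without a mean-variance trend.

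The cofactor genes changed little and F5 moved downward. F5, which encodes factor V, read 8.67 and 8.76 in control, 8.42 and 8.44 in HO1 knockout, 8.85 and 8.82 in HO2 knockdown and 8.54 and 8.32 in combined. It was at -0.28 in HO1 knockout against control (SE 0.088, adjusted p = 0.0466) and at -0.41 in combined against HO2 knockdown (SE 0.088, adjusted p = 0.00215). The first of these missed the threshold in 10 of the 17 alternatives, with values from -0.29 to -0.23, and the second without combined replicate 2 (-0.30). F8, which encodes factor VIII, and Vwf, which encodes its carrier von Willebrand factor, both made mainly by endothelial cells, passed in no comparison, nor did Tfpi. In HO2 knockdown against control F8 was at 0.21 (95% interval -0.01 to 0.44) and Vwf at -0.02 (-0.21 to 0.18). Of 10 endothelial markers 3 were higher and 0 lower in HO1 knockout, 4 higher and 1 lower in HO2 knockdown and 7 higher and 0 lower in combined.

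Of the contact and intrinsic pathway F12 and Kng1 rose with each perturbation and F11 was lower in the arrays labelled HO1-/-. F12, which encodes factor XII, read 7.97 and 8.07 in control, 8.57 and 8.50 in HO1 knockout, 9.98 and 9.78 in HO2 knockdown and 10.07 and 9.80 in combined, so that the arrays with HO2 shRNA overlapped each other and stood above the rest. It rose by 0.52 in HO1 knockout, 1.86 in HO2 knockdown (SE 0.094, adjusted p = 4.76e-10) and 1.91 in combined. Kng1, which encodes kininogen, the source of bradykinin, read 11.52 and 11.54, then 12.25 and 12.22, then 12.81 and 12.90, then 12.81 and 12.90 in the same order. It rose by 0.70 in HO1 knockout and by 1.33 both in HO2 knockdown and in combined, with an interaction of -0.70. Given HO2 shRNA, the HO1 genotype made no detectable difference to Kng1 (95% interval -0.10 to 0.10). F11, which encodes factor XI, read 9.74 and 9.84 in control, 9.22 and 9.19 in HO1 knockout, 9.92 and 9.94 in HO2 knockdown and 9.19 and 9.21 in combined. It was lower in all 4 arrays labelled HO1-/-, at -0.58 with scrambled shRNA (SE 0.067, adjusted p = 1.15e-05) and -0.73 with HO2 shRNA (SE 0.067, adjusted p = 7.56e-07), and the interaction did not pass (-0.14, 95% interval -0.35 to 0.06).

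The subunits of factor XIII, which cross-links fibrin, moved apart. F13a1, the catalytic A subunit gene, which macrophages and platelets express, read 6.79 and 7.01 in control, 10.46 and 10.52 in HO1 knockout, 6.70 and 6.93 in HO2 knockdown and 9.56 and 9.76 in combined. It was 3.59 higher in HO1 knockout than in control (SE 0.10, adjusted p = 3.4e-13), a 12.1-fold difference, the largest rise among the 30 genes in that comparison, and 2.84 higher in combined than in HO2 knockdown (SE 0.10, adjusted p = 6.91e-12). Macrophage markers moved with it, 7 of 12 being higher and 1 lower in HO1 knockout with a median of 1.15, and 7 higher and 0 lower in combined against HO2 knockdown with a median of 1.51. Their part in the F13a1 signal was not tested. Of 5 markers listed for platelets only Pf4 was higher in HO1 knockout, by 4.04, and the platelet genes Itga2b and Gp9 were at 0.06 and -0.08. In HO1-/- cells HO2 shRNA lowered F13a1, at -0.83 (SE 0.10, adjusted p = 1.64e-05), while Adgre1 changed by -1.29 and Lyz2 by 0.13. F13b, the carrier B subunit gene, followed HO2 shRNA instead, with signals of 6.09 and 5.78 in control, 5.81 and 6.03 in HO1 knockout, 7.43 and 7.28 in HO2 knockdown and 6.87 and 7.03 in combined. It rose by 1.42 in HO1+/+ cells and by 1.03 in HO1-/- cells (SE 0.12, adjusted p = 9.73e-06). The tissue factor gene F3 was 0.35 higher in combined than in control and not past the test in either single perturbation (0.06 and -0.11). Its interaction was 0.41 (SE 0.070, adjusted p = 0.00142).

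Of the anticoagulant genes, Proz, described above, and Proc rose with HO2 shRNA, and differences of the others were under 0.5. The rise of Proz was 0.62 in HO1+/+ cells and 0.92 in HO1-/- cells. Proc, which encodes protein C, was 0.42 higher in HO2 knockdown than in control and 0.44 higher in combined than in HO1 knockout. Pros1, its cofactor protein S, was not past the test in either single perturbation (0.19 and -0.11) but was at -0.26 in combined against control and at -0.46 in combined against HO1 knockout (SE 0.067, adjusted p = 8.63e-05). Its interaction of -0.35 (adjusted p = 0.0259) was lost in 8 of the 17 alternatives. Thbd, the endothelial thrombin receptor thrombomodulin, was 0.29 higher in HO1 knockout and 0.32 higher in combined than in HO2 knockdown. Tfpi, which blocks tissue factor, had signals from 7.84 to 8.30 over the 8 arrays, and its 2 control arrays, 7.95 and 8.30, spanned most of that range. Its differences from control were -0.22 in HO2 knockdown and -0.14 in combined, and -0.40 and -0.32 without control replicate 1. That neither was called thus depends on that array.

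In the plasminogen system the liver-made substrate rose with HO2 shRNA in both genotypes, and of the activators Plat fell in both and Plau in HO1+/+ cells. Plg, which encodes plasminogen, read 7.61 and 7.46 in control, 8.16 and 8.37 in HO1 knockout, a mean of 10.94 ± 0.089 (SD, n = 2) in HO2 knockdown and 11.46 and 11.41 in combined, with no overlap between groups. It rose by 3.40 in HO1+/+ cells (SE 0.083, adjusted p = 9.4e-14), a 10.6-fold rise, and by 3.17 in HO1-/- cells (SE 0.083, adjusted p = 4.46e-13), and the interaction did not pass (-0.23, 95% interval -0.48 to 0.02). Combined against control, at 3.90 or 14.9-fold, was the largest difference of any of the 30 genes in any of the comparisons. Hrg, which encodes histidine-rich glycoprotein, a plasma protein that binds heme, heparin and plasminogen, read 6.73 and 6.71 in control, 7.46 and 7.70 in HO1 knockout, 10.21 and 10.31 in HO2 knockdown and 10.12 and 10.19 in combined. It rose by 0.86 in HO1 knockout (SE 0.090, adjusted p = 4.17e-06) and by 3.54 in HO2 knockdown (SE 0.090, adjusted p = 1.29e-13), and its interaction was -0.96 (SE 0.13, adjusted p = 0.000168). Hrg and Kng1 are separated only by the kininogen paralog Kng2, which was 1.03 higher in HO2 knockdown and 0.59 in HO1 knockout.

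The activator genes were lower in HO2 knockdown. Plat, which encodes tPA, read 9.94 and 9.92 in control, 10.39 and 10.23 in HO1 knockout, 9.42 and 9.46 in HO2 knockdown and 9.87 and 9.71 in combined. It was 0.38 higher in HO1 knockout and at -0.49 in HO2 knockdown (SE 0.073, adjusted p = 7.18e-05), the only 1 of the 30 genes called in opposite directions by these comparisons, and HO2 shRNA lowered it alike in HO1-/- cells (-0.52). Plau, which encodes uPA, read 9.17 and 9.23 in control, 9.37 and 9.34 in HO1 knockout, 8.75 and 8.59 in HO2 knockdown and 9.45 and 9.38 in combined. HO2 shRNA lowered it in HO1+/+ cells, at -0.53 (SE 0.076, adjusted p = 4.32e-05), but in HO1-/- cells the change was 0.05 and not past the test, and the interaction was 0.59 (SE 0.11, adjusted p = 0.0021). Plaur, the receptor of uPA, was 0.19, 0.20 and 0.50 above control in HO1 knockout, HO2 knockdown and combined, the first 2 near the threshold (adjusted p = 0.0486 and 0.0143) and lost in 11 and 5 of the 17 alternatives.

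Both macroglobulin genes, whose products trap proteases in plasma, were among the largest rises with HO2 shRNA, and Pzp was also higher in HO1 knockout. Pzp read 8.65 and 8.75 in control, 10.43 and 10.49 in HO1 knockout, 11.39 and 11.38 in HO2 knockdown and 12.13 and 12.14 in combined, again with no overlap. It rose by 1.76 (SE 0.056, adjusted p = 9.19e-13), 2.69 and 3.44, and its interaction was -1.01 (SE 0.079, adjusted p = 1.1e-06). Mug1 read 7.70 and 7.37 in control, 7.45 and 7.39 in HO1 knockout, 10.52 and 10.43 in HO2 knockdown and 10.75 and 10.62 in combined. It rose by 2.94 with HO2 shRNA in HO1+/+ cells (SE 0.097, adjusted p = 4.59e-12) and by 3.26 in HO1-/- cells (SE 0.097, adjusted p = 1.44e-12), and HO1 knockout did not differ from control past the test (-0.11, 95% interval -0.32 to 0.09). Mug1 has close copies, and 2 probe sets shared with them were 2.76 and 2.84 higher in HO2 knockdown than in control. The probe set of Mug2 alone rose by 1.10, and which copy gave the signal of the shared sets is uncertain.

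Seen over the whole list, HO2 shRNA raised or lowered 16 genes in both genotypes, whose comparisons share no arrays. For this effect and for the HO1 label below, the share of all genes called in both backgrounds was not counted. Of the 30 genes 15 were higher in both (F2, F10, F12, F13b, Fga, Fgb, Fgg, Plg, Plaur, Hrg, Proc, Proz, Kng1, Mug1 and Pzp), 1 was lower in both (Plat), 0 were called in opposite directions and 7 in neither. Within HO1-/- cells 16 were higher and 4 lower, against 23.0% of all genes called, 10.2% higher and 12.8% lower. The HO1 label went with 9 genes higher in both hairpin backgrounds (F7, F10, F13a1, Fgg, Plg, Plat, Plaur, Thbd and Pzp) and 2 lower in both (F5 and F11), while 7 more passed as higher with scrambled shRNA and not with HO2 shRNA. Of these F12, Fga, Fgb, Hrg, Kng1 and Vkorc1 had an interaction past the test and F2 had none (-0.14, adjusted p = 0.286). Those of F12 and Vkorc1 were lost under some alternatives. Under HO2 shRNA 11 were higher and 5 lower in HO1-/- than in HO1+/+ cells, against 34.0% of all genes called, 2591 of 19937 higher and 4184 (21.0%) lower. The share of all genes called there was 19.2% without HO2 knockdown replicate 1, and 22.5% and 20.4% without combined replicate 1 and 2. Of all genes called there 38.2% were higher on the deposited scale, 27.1% once each array's median was subtracted and 47.7% once quantiles were equalised, and the 30 genes split 10 to 6 and 13 to 5 under these scalings.

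**Figure D3:**
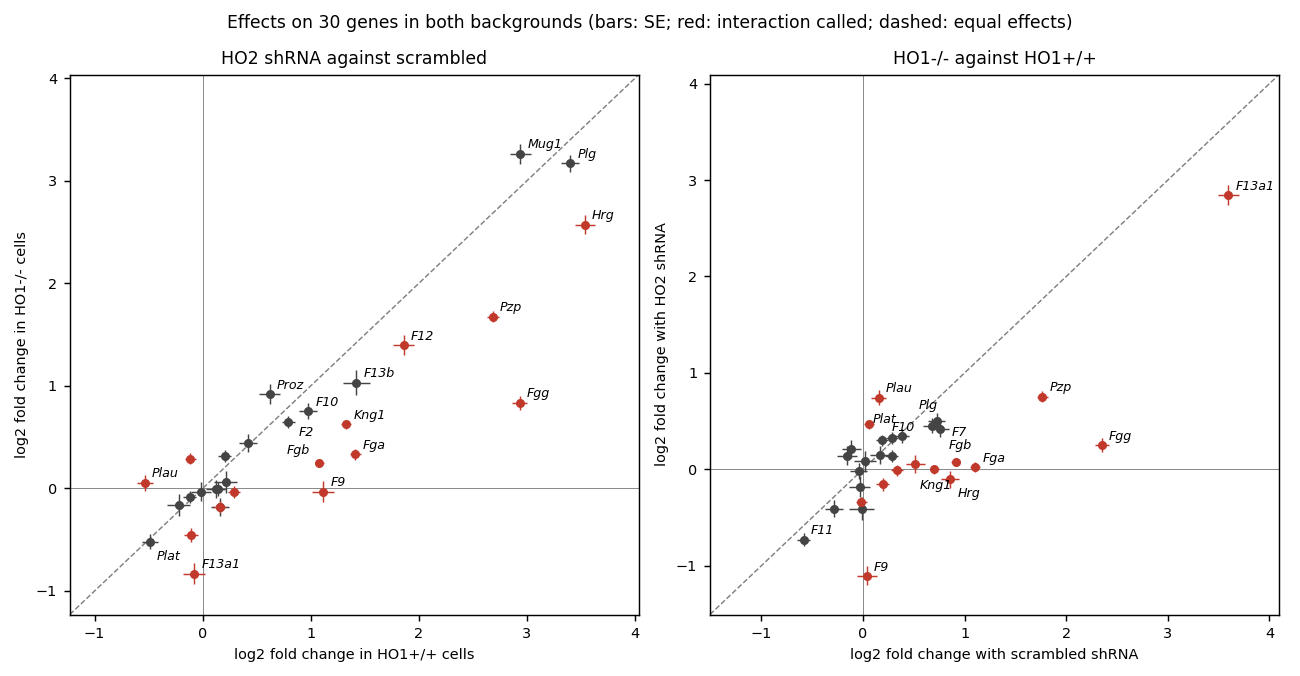
Log2 fold changes of the 30 genes with HO2 shRNA (left, HO1+/+ cells on the horizontal and HO1-/- cells on the vertical axis) and with the HO1-/- label (right, scrambled shRNA on the horizontal and HO2 shRNA on the vertical axis), with standard errors as bars and the dashed line marking equal effects. Mug1 and Plg lie near the line on the left (3.40 and 3.17 for Plg), Fgg far below it (2.93 and 0.83), and F9 at 1.11 and -0.03.

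The interaction passed for 14 of the 30 genes, 12 of them negative and 2 positive, against 12.2% of all genes called, 7.57% negative and 4.67% positive. The share of all genes called was 23.8% without control replicate 2, 7.65% without HO1 knockout replicate 1, 6.53% without HO2 knockdown replicate 1, and 6.85% and 6.77% without combined replicate 1 and 2. The all-gene split depends on scaling, since 38.2% of called genes were positive as deposited, 27.3% with centred arrays and 50.4% after quantile normalization, where the 30 genes gave 2 positive and 12 negative, and 3 and 10. Without control replicate 2 the positive ones numbered 4. The 7 genes F12, Fga, Fgb, Fgg, Hrg, Kng1 and Pzp were higher with each perturbation alone and had a negative interaction. The share of all genes with this pattern was not counted. The F12 interaction (-0.46) was lost without the mean-variance trend and after quantile normalization (-0.38). It was also lost without control replicate 1 (-0.41), either HO1 knockout array, HO2 knockdown replicate 1 (-0.36) or combined replicate 2 (-0.33). Among genes with large effects of HO2 shRNA in HO1+/+ cells, Plg (-0.23), F10 (-0.22), F13b (-0.39) and Mug1 (0.32) had interactions that did not pass. For F13b this depended on control replicate 1 (-0.55 without it) and for Mug1 on control replicate 2 (0.49 without it). Mug1 also passed after quantile normalization (0.42). The 2 probe sets that Mug1 shares with its copies gave interactions of 0.43 and 0.65. Hmox2 itself was lowered less in HO1-/- cells, with an interaction of 0.84, and the part of this in the interactions here was not tested. Hepatocyte markers had a median interaction of -0.26, with 5 of 9 negative and 0 positive past the test.

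**Figure D4:**
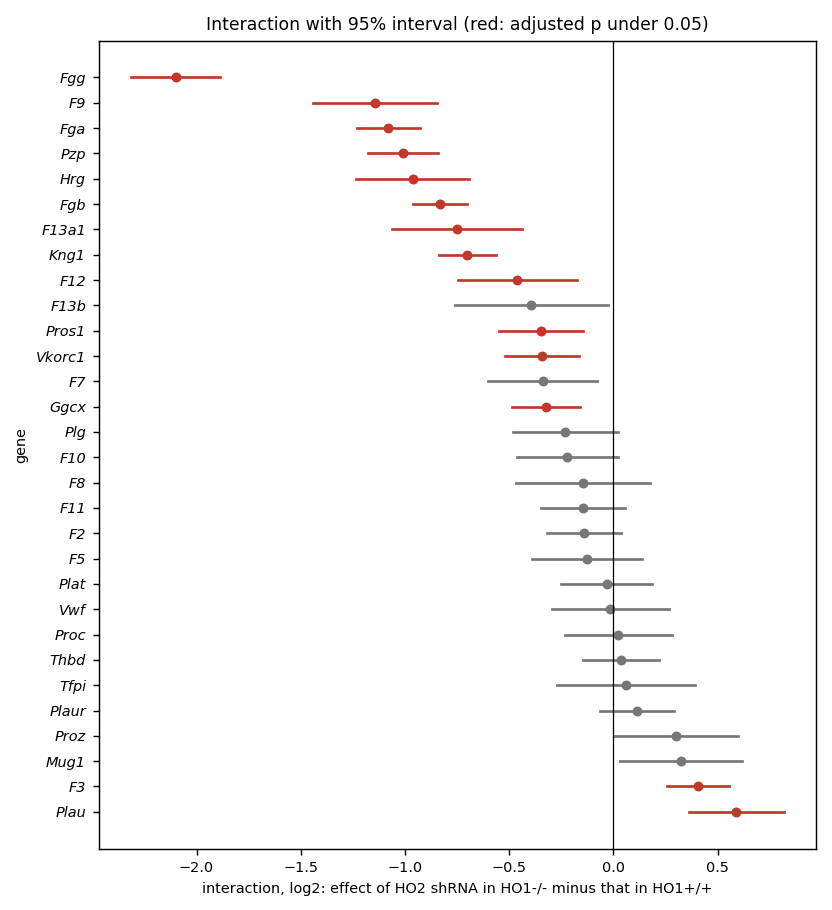
Interaction (effect of HO2 shRNA in HO1-/- cells minus that in HO1+/+ cells, log2, horizontal axis) of each of the 30 genes with its 95% interval, red where the adjusted p was under 0.05. Fgg lies lowest at -2.10, followed by F9, Fga and Pzp, and Plau lies highest at 0.59.

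The genes were also counted by where their proteins are mainly made. Of 18 measured genes for plasma proteins made mainly by hepatocytes, 15 were higher and 0 lower in HO2 knockdown, with a median of 1.22. Of 9 genes made largely by other cells (F3, F8, F13a1, Plat, Plau, Plaur, Vwf, Thbd and Tfpi), 1 was higher and 2 were lower there, with a median of -0.11. Of all genes tested 16.5% were higher and 16.7% lower in HO2 knockdown. The 11.1% and 22.2% of the 9 genes were near these shares. Most hepatocyte markers rose in the same arrays, 7 of 9 being higher and 1 lower with a median of 0.84. Cps1 (2.99), Apoa1 (2.32) and Alb (0.53) were higher, Apob was lower (-0.15), and Trf, the brightest, did not pass (0.05). Macrophage markers had a median of -0.03. In HO1 knockout 11 of the 18 were higher and 2 lower with a median of 0.60, beside a hepatocyte marker median of 0.25, and of the 9 other-cell genes 4 were higher and 0 lower with a median of 0.16. In combined against control the counts were 15 higher and 2 lower of the 18, and 5 higher and 0 lower of the 9. In combined against HO2 knockdown 5 of the 18 were higher and 4 lower with a median of 0.07, and 6 of the 9 were higher and 0 lower with a median of 0.32. The difference between the 2 sets of genes was not tested. The part of hepatocyte content or state in these rises was not tested.

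Other genes of the pathway were mixed. Of 7 measured serpins that inhibit coagulation or fibrinolytic proteases, 4 were higher and 1 lower in HO2 knockdown. Serpinf2, the plasmin inhibitor alpha 2-antiplasmin, was 2.66 higher, Serpina10, the protein Z-dependent inhibitor, 1.34 and Serpinc1, antithrombin, 0.94, whereas Serpinb2, the inhibitor PAI-2, was at -2.09. In HO1 knockout Serpina10 and Serpinf2 were 1.17 and 1.06 higher. Both had negative interactions (-0.89 and -0.63), as did Kng2 (-0.86) and the fibrinogen-like liver protein gene Fgl1 (-1.22). Fgl1 rose by 1.65 in HO1 knockout and 1.68 in HO2 knockdown. Over the 7 serpins 3 interactions were negative and 1 was positive past the test, that of Serpinb2 (0.85). Of 4 measured receptors 2 were lower in HO2 knockdown, F2r, the thrombin receptor PAR1, at -1.01 and Procr, the endothelial protein C receptor, at -0.66, and the other 2 did not pass. Of 6 other vitamin K-dependent proteins 0 were higher and 3 lower in HO2 knockdown, with Prrg4 at -1.19. Of 7 other genes of fibrinolysis Habp2, a plasma protease made by liver, rose by 1.34, while Thbs1 was at -0.81 and Anxa2, a plasminogen receptor, at -0.33. Of 5 genes of secretion and vitamin K reduction 0 were called in either direction in HO2 knockdown.

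Genes that regulate the liver-made factors were measured beside them. In HO2 knockdown the liver transcription factor genes Onecut1, Hnf4a and Foxa2 were 1.50, 0.75 and 0.58 higher and Cebpb was at -0.32, 4 of 6 measured being higher and 1 lower. In HO1 knockout Onecut1 was 0.62 higher and Cebpb 0.28. Among interleukin 6 and glucocorticoid signalling genes, Il6 was at -1.10 in HO2 knockdown and -0.66 in HO1 knockout. Its signal was dim, with a mean of 5.05 over all arrays beside a lower quartile of 6.77 over all genes. The control arrays of Il6 read 5.48 and 6.08. The feedback inhibitor gene Socs3 was 0.69 higher in HO1 knockout and at 0.00 in HO2 knockdown, and the glucocorticoid target Tsc22d3 was 0.84 higher in HO2 knockdown and 0.30 in HO1 knockout. The receptor gene Il6ra was 0.70 higher in HO2 knockdown and at 0.07 in HO1 knockout, the latter not past the test.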

How the data were processed

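Total RNA, 300 ng an array, was measured on 8 arrays in 4 groups of 2. The authors deposited RMA values on the log2 scale, 1 for each probe set and array, for which the submitters' processing notes name affy and R 2.15.0. The chip definition file is not given in the sources used here. Log2 values carry no detection call, and background signal in dim probe sets makes log2 fold changes understate large differences. At the bright end, the mean signals of Fga, Fgb and Kng1 stood at 99.02%, 99.47% and 98.1% of the ranking of all genes. Whether differences between such bright signals were compressed was not tested.

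Of 34760 probe sets, 21640 carried 1 symbol in the platform table, 1321 several and 11799 none. The brightest probe set per gene was kept, giving 19937 genes, of which 19855 matched RefSeq (GRCm38.p6) by gene ID. All 8 arrays were fitted as 4 group means with limma 3.58.1 (R 4.3.3), 4 residual degrees of freedom and a mean-variance trend (11.19 prior). Tests were two-sided with Benjamini-Hochberg adjustment over all genes. SD is between arrays and SE is moderated. The 2 arrays a group limit the precision.

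The fit was tested on simulated data of 19937 genes, with 50 genes changed at each size. For HO2 knockdown against control it called 8%, 70% and 96% of genes changed by 0.25, 0.5 and 1, and for the interaction 6%, 26% and 78%. Far fewer genes were changed than were called in the data, which makes the adjusted p stricter. These shares therefore do not give the sensitivity in the data.

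The members and lists were chosen with earlier results of these data known. Full statistics were allowed for the 6 largest called changes in each direction in a comparison, of each pathway or regulator list the 3 members with the smallest p in a comparison could be named, and of each marker list the brightest and the largest change. Alb, Apob, Gp9, Itga2b and Timd4 were chosen after their values were seen. The alternatives dropped the mean-variance trend, weighted arrays, rescaled them, removed dim genes, averaged probe sets, fitted fewer groups, blocked on the replicate number or left out 1 array.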

Additional observations from a re-analysis of the deposited data

Results flagged for a closer look

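The effect of HO2 shRNA differed between HO1-/- and HO1+/+ cells for 14 of the 30 genes, by the limma interaction (adjusted p under 0.05). Among the fibrinogen chains it differed by -2.10 for Fgg, -1.08 for Fga and -0.83 for Fgb on the log2 scale. The other differences of plasma protein genes were -1.14 for F9, -1.01 for Pzp, -0.96 for Hrg, -0.70 for Kng1 and -0.46 for F12. F13a1 differed by -0.75, the cofactor gene Pros1 by -0.35, and the vitamin K cycle genes Vkorc1 and Ggcx by -0.34 and -0.32. In the opposite direction Plau differed by 0.59 and F3 by 0.41. The groups of 2 arrays are too small for a check of single arrays that stand apart.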

How the results depend on the processing

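Of 110 calls over the 30 genes and 6 comparisons, 95 held under all 17 alternatives that gave a value, 15 were lost under at least 1, and 0 reversed. All 71 called changes of at least 0.5 held, and the largest change among lost calls was 0.46 (F12, interaction). With 70 results not called, 14 were called under at least 1 alternative. The genes lower in HO1 knockout numbered 1 in place of 2 without the mean-variance trend, with array weights, with centred arrays, with only the groups compared, and with the replicate block, F5 being lost each time. Those lower in HO2 knockdown were 4 in place of 2 after quantile normalization, F3 and Thbd being added, and those lower in combined against HO2 knockdown 3 in place of 5 without dim genes, where F9 and F13b were not tested.

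Leaving out each array in turn gave 15 to 16 higher and 1 to 2 lower genes in HO1 knockout, 16 to 17 and 2 to 3 in HO2 knockdown, 18 to 20 and 1 to 4 in combined against control, 16 and 3 to 4 in combined against HO1 knockout, 10 to 13 and 4 to 5 in combined against HO2 knockdown, and 2 to 4 positive and 8 to 12 negative interactions. The 4 positive interactions arose without control replicate 2. Over all genes the interaction was called for 6.82% without the mean-variance trend, in place of 12.2%.

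Deviations of same-numbered arrays correlated between groups from -0.261 to 0.122, over 0.1 in 1 of 6 pairs of groups. These values cannot show whether same-numbered arrays shared a preparation or a batch. With the replicate block 16 genes were higher in HO1 knockout and 17 in HO2 knockdown, as without it. No fit with only the groups compared exists for the interaction. With 2 arrays a group and signals without a detection call, changes of 0.25 on the log2 scale were mostly missed in simulated data with few changed genes. In the data some smaller changes were called, such as Plaur at 0.19 in HO1 knockout.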
